A study of Homo sapiens with 11 samples.

Results

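A set of 30 genes of cholesterol synthesis and sterol control was followed across the 4 groups of a HEC50B experiment. They comprise 20 enzymes of the route from acetyl-CoA to cholesterol, among them GGPS1 of a side branch. The others are 4 genes of sterol sensing, 3 of sterol transport and 3 targets of the liver X receptors (LXR). A gene was included when its Ensembl identifier mapped to a symbol on the list, which made 30 of 57736 gene rows, and all 30 were among the 13980 genes with enough counts to test. HEC50B cells derive from an endometrial cancer. The parental cells carry R183W in PPP2R1A, which encodes the scaffold of the phosphatase PP2A, and CRISPR correction of that allele gave the comparator, called WT. The labels do not say whether the corrected line is 1 clone. Both lines were kept for 4 days in vehicle or in 50 µM of WM1119, a small molecule that blocks the histone acetyltransferase KAT6A. There were 3 libraries each of R183W vehicle, WT vehicle and WT WM1119, and 2 of R183W WM1119. The comparisons were R183W against WT under each treatment, WM1119 against vehicle in each line, and the interaction, which is the WM1119 difference in R183W cells minus that in WT cells. These comparisons share groups, so they are not independent of each other.

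Cholesterol is built from acetyl-CoA through mevalonate, isoprenoid diphosphates, squalene and lanosterol. When sterols in the endoplasmic reticulum are low, SCAP escorts the transcription factor encoded by SREBF2 to the Golgi, where it is cut free and then raises transcription of most of the enzymes. When sterols are ample, INSIG1 and INSIG2 hold SCAP back, and oxysterols activate the LXR nuclear receptors, whose targets include the exporters ABCA1 and ABCG1.

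Levels are given as CPM, that is, counts divided by the scaled library size and set to a common total. CPM does not correct for transcript length, so levels were compared between samples and not between genes. Library totals ran from 2609922 to 6065149 counts, and 3 counts, taken as the floor, were worth 0.495 to 1.24 CPM. The third WT WM1119 library had the fewest counts and stood apart: its log CPM correlated with the other libraries of its group at r = 0.917 and 0.937, against 0.957 to 0.975 for all other replicate pairs. Several results resting on it are given with and without it, but not all. The counts carry no allele information and so do not check the R183W label. Of the epithelial markers 3 of 5 (EPCAM, KRT8, KRT18) and of the Müllerian markers 3 of 6 (PAX8, EMX2, MSX1) averaged at least 1 CPM, while SOX17 and PGR were at 0 in every library and CDH1 did not exceed 0.811 CPM. Summed epithelial markers ran from 1648 to 1846 CPM in R183W vehicle, 1625 to 1627 in R183W WM1119, 947 to 1209 in WT vehicle and 1168 to 1525 in WT WM1119. Of 6 stromal markers 3 averaged at least 1 CPM (COL1A1, LUM, PDGFRA), with COL3A1 and DCN at 0. The stromal sum was 825 to 1043 CPM in R183W vehicle, 653 to 655 in R183W WM1119, 687 to 835 in WT vehicle and 931 to 1049 in WT WM1119. The leukocyte sum was 2.57 to 11.2 CPM, with CD3E at 0, and the sum of the 2 matched endothelial markers was at most 0.856 CPM. These sums moved with line or treatment, and their part in the sterol gene results was not tested.

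Of the 30 genes, 14 passed the test in at least 1 comparison, giving 20 calls. A call is an adjusted p under 0.05 in edgeR's quasi-likelihood F test, adjusted over all genes tested. Of these, 16 were differences between the lines and 4 differences with WM1119. Calls between the lines were also the more frequent among all 13980 genes tested. They numbered 1817 under vehicle and 1197 under WM1119, against 649 with WM1119 in R183W cells and 680 in WT cells. The share of all genes called in at least 1 comparison was not computed, so 14 of 30 has no background here. INSIG1 was called in 3 comparisons, FDPS, FDFT1, ACAT2 and TM7SF2 in 2 each, and 9 genes in 1. Of the 20 enzymes, those above their own median over the 11 libraries numbered 13, 11 and 8 in the R183W vehicle libraries and 16 and 17 in R183W WM1119. In WT they numbered 5, 3 and 6 under vehicle and 6, 8 and 7 under WM1119. The summed enzyme level was 1072 to 1136 CPM in R183W vehicle, 1308 to 1323 in R183W WM1119, 864 to 909 in WT vehicle and 947 to 1039 in WT WM1119. The ranges of the 4 groups did not overlap, with R183W WM1119 highest and WT vehicle lowest, though this sum weighs the high-count genes most.

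**Figure D1:**
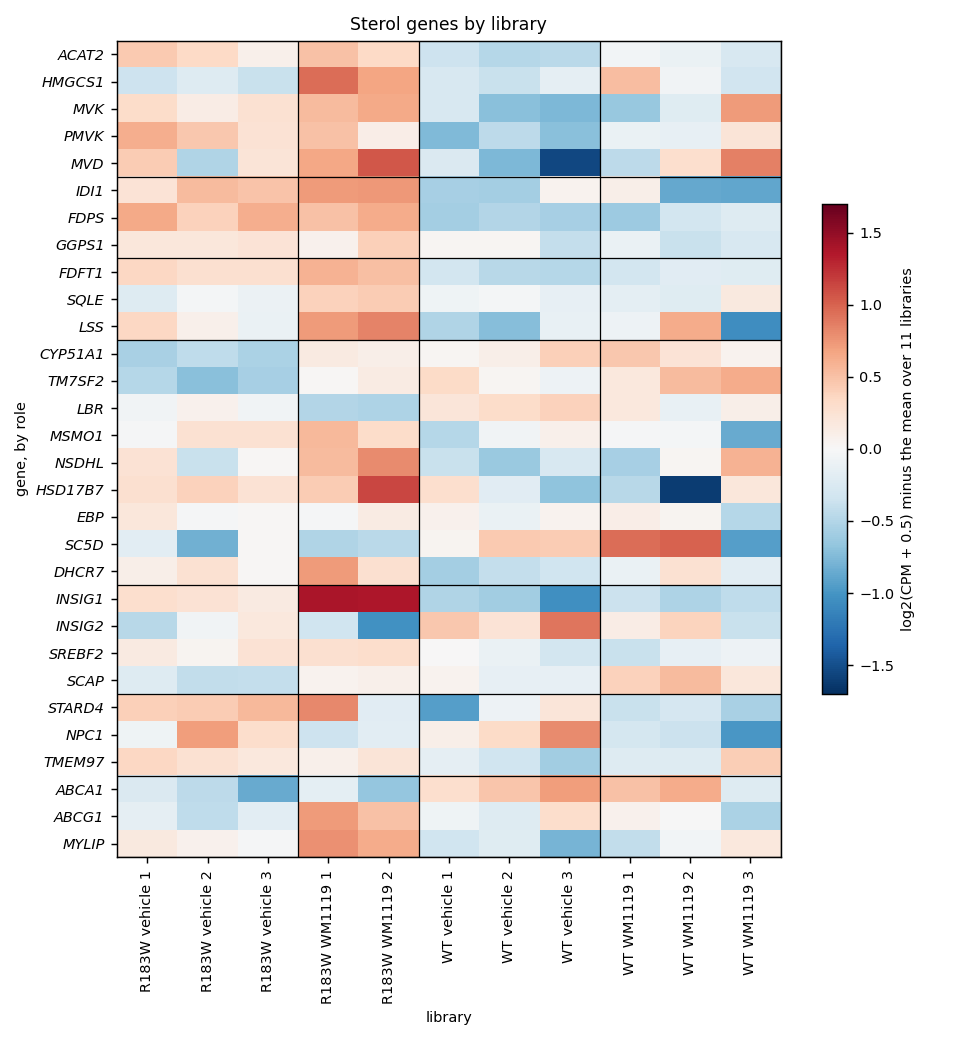
Rows are the 30 sterol genes in order of role, columns the 11 libraries, and colour is log2(CPM + 0.5) minus the gene's mean over the 11 libraries. INSIG1 is darkest in the 2 R183W WM1119 libraries, and the upper rows, from ACAT2 to FDFT1, are mostly red in R183W and blue in WT libraries.

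The stretch before the transcription start was available for 26 of the 30 genes, 250 bases each, from RefSeq on GRCh38.p14. The windows of INSIG1, FDPS, PMVK and TM7SF2 are printed because, of the called genes with a window, these had the smallest adjusted p. Each reads 5′ to 3′ on the strand of its gene and ends at the base before the start. INSIG1 covers chr7:155297628-155297877, plus strand, FDPS chr1:155308616-155308865, plus strand, PMVK chr1:154936720-154936969, minus strand and TM7SF2 chr11:65111622-65111871, plus strand. Capitals mark matches to 3 motifs, and a match on the other strand appears as its reverse complement. The NF-Y box is CCAAT. The Sp1 box is GGGCGG, and adjoining Sp1 boxes may share a base. The E-box, CACGTG, reads the same on both strands.
INSIG1: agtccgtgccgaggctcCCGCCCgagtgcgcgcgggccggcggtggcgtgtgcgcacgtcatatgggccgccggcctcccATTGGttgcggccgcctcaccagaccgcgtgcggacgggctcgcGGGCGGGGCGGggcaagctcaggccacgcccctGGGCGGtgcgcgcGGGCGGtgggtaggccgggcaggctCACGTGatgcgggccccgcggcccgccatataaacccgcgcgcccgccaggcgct
FDPS: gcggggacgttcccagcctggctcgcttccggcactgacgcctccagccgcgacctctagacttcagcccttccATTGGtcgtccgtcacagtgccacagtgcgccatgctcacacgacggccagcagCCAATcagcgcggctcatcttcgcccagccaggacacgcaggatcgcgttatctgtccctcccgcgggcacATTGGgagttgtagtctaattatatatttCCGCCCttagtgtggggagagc
PMVK: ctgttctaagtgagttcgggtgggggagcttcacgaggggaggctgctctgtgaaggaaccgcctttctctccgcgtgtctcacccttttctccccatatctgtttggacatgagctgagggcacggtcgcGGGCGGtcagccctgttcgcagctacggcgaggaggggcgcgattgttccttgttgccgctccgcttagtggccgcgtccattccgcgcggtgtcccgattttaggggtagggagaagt
TM7SF2: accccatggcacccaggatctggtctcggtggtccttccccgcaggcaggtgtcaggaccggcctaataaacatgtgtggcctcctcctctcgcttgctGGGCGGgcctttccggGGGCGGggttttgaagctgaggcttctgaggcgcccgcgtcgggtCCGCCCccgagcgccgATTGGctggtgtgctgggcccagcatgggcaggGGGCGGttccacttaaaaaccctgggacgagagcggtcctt

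The INSIG1 window held 1 NF-Y box, 5 Sp1 boxes and 1 E-box, and the FDPS window 3 NF-Y boxes and 1 Sp1 box. PMVK showed 1 Sp1 box, and TM7SF2 showed 1 NF-Y box and 4 Sp1 boxes. Over all windows of a gene, CCAAT was present in 19 of 26 members (73.1%), against 41.9% of tested genes with a window and 37.0% of all genes with a window. GGGCGG was present in 24 of 26 (92.3%), against 75.3% and 46.2%, and CACGTG in 4 of 26 (15.4%; SC5D, INSIG1, SCAP and ABCA1), against 11.5% and 7.73%. The sterol regulatory element in the form TCACNCCAC, which includes TCACCCCAC, was found in 1 of 26 (3.85%), against 1.21% and 1.09%. That gene was SREBF2, with the match from -133 to -125 relative to the start. These are letter matches in a short window, described without a test, and say nothing of binding.

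**Figure D2:**
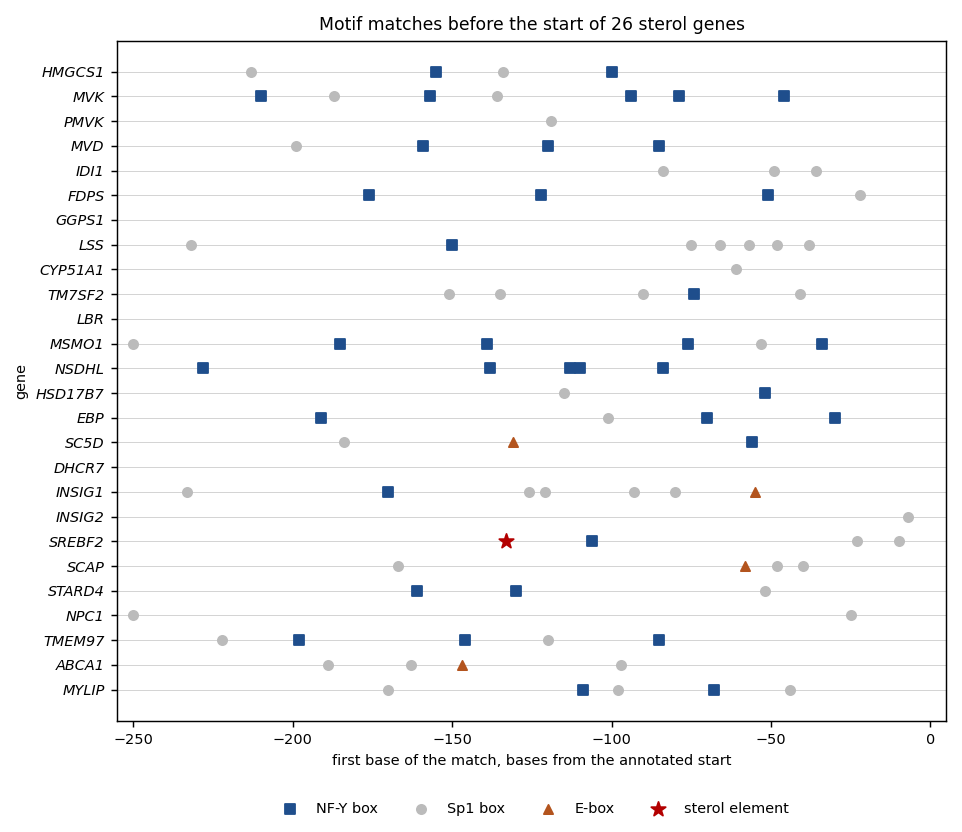
Each symbol is a motif match in the 250 bases before the start of a sterol gene, at the distance of its first base from the start, for the most upstream window of each gene. NF-Y boxes recur in many rows and the only sterol element is in SREBF2; rows without a symbol had no match in that window, while the counts in the text use every window of a gene.

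Under vehicle, R183W cells had higher RNA of 7 sterol genes and lower RNA of 3 than WT cells. The 7 were ACAT2, PMVK, FDPS, FDFT1, DHCR7, INSIG1 and TMEM97, and the 3 were TM7SF2, CYP51A1 and ABCA1. Of all genes tested, 6.82% were called higher and 6.17% lower. The higher calls included 4 of the 11 enzymes up to lanosterol, GGPS1 of the side branch counted, with none lower. By contrast, 1 higher and 2 lower calls fell among the 9 enzymes from lanosterol to cholesterol. Over the 30 genes the median log2 difference was 0.36, with 19 above 0, against a median of -0.01 over all genes tested. In bulk RNA, fewer cells expressing a gene and less RNA per cell cannot be told apart.

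FDPS makes farnesyl diphosphate, the last isoprenoid before squalene. It was at 171, 145 and 169 CPM in the R183W vehicle libraries and 73.4, 77.4 and 73.95 CPM in WT vehicle. The lowest R183W library lay well above the highest WT library, and the log2 difference was 1.11 (SE 0.14, edgeR adjusted p = 0.000123). FDFT1 joins farnesyl units into squalene. Its levels were 159.7, 151 and 152 CPM in R183W and 101, 90.5 and 89.8 CPM in WT, again without overlap, a difference of 0.72 (SE 0.11, edgeR adjusted p = 0.000977). PMVK, the second kinase of the mevalonate branch, stood at 44.1, 39.4 and 33.9 CPM in R183W and 16.7, 20.8 and 17.3 CPM in WT. Every R183W library was above every WT library, with a difference of 1.10 (SE 0.19, edgeR adjusted p = 0.00172). ACAT2, the cytosolic thiolase that joins acetyl-CoA units, read 126, 117 and 98.1 CPM in R183W and 72.1, 65.9 and 66.99 CPM in WT. The groups were apart, with a difference of 0.73 (SE 0.13, edgeR adjusted p = 0.00265). The 3′ end of ACAT2 overlaps TCP1 on the opposite strand, and no source used here says whether the counting used strand. These 4 calls held in all 11 fits that left out 1 library. Reads of processed pseudogenes, which FDPS is known to have, may be shared out between copies in estimated counts.

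The late enzymes were mixed. DHCR7, the reductase that completes cholesterol, was at 45.5, 51.1 and 43.2 CPM in R183W and 28.3, 32.02 and 33.7 CPM in WT vehicle. The groups did not overlap, and the difference was 0.57 (SE 0.17, edgeR adjusted p = 0.0462). TM7SF2 and LBR both encode sterol C14 reductases. TM7SF2 ran the other way, at 82, 69.98 and 77.5 CPM in R183W and 144, 117 and 108 CPM in WT. All R183W libraries were below all WT libraries, a difference of -0.68 (SE 0.15, edgeR adjusted p = 0.00952). CYP51A1, the lanosterol demethylase, was also lower, at 9.07, 9.84 and 9.12 CPM against 13.8, 14.5 and 18.1 CPM in WT. Here too the groups were apart, with a difference of -0.73 (SE 0.21, edgeR adjusted p = 0.0352). LBR itself was at 83.98, 92.7 and 84.4 CPM in R183W and 101, 109 and 115 CPM in WT. Its groups did not overlap, but the difference of -0.32 (SE 0.13, edgeR adjusted p = 0.117) was not called.

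Outside the enzymes, INSIG1 was at 70.3, 68.1 and 64.1 CPM in R183W vehicle and 40.2, 37.7 and 27.5 CPM in WT vehicle. All R183W libraries exceeded all WT libraries, with a difference of 0.94 (SE 0.15, edgeR adjusted p = 0.00107), and the call held in all 11 fits that left out 1 library. TMEM97, a sterol-binding membrane protein that binds NPC1, read 188, 176 and 165 CPM in R183W and 131, 116 and 96.9 CPM in WT. The ranges were separate and the difference was 0.62 (SE 0.17, edgeR adjusted p = 0.0316). ABCA1, which exports cholesterol to lipid-poor apolipoproteins, was at 16.99, 14.8 and 10.9 CPM in R183W and 24.8, 28.4 and 33.7 CPM in WT. It was lower in every R183W library than in every WT library, a difference of -1.02 (SE 0.25, edgeR adjusted p = 0.0161). The other LXR targets were not called under vehicle. MYLIP, an E3 ubiquitin ligase for lipoprotein receptors, was at 29.9, 28.04 and 26.4 CPM in R183W and 20.97, 23.1 and 15.2 CPM in WT, without overlap, a difference of 0.51 (SE 0.20, edgeR adjusted p = 0.113). ABCG1 was at 13.7, 11.1 and 13.4 CPM in R183W and 14.5, 12.96 and 18.8 CPM in WT, overlapping, a difference of -0.27 (SE 0.23, edgeR adjusted p = 0.465).

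The calls of DHCR7 and CYP51A1 depended on single libraries: they passed in 4 and 3 of the 11 fits that left out 1 library, with adjusted p up to 0.156 and 0.15. DHCR7 was lost without any 1 of the 6 vehicle libraries or R183W WM1119 library 1, and CYP51A1 without any R183W library, WT vehicle 2 or 3, or WT WM1119 library 2. TMEM97 passed in 6 fits, ABCA1 in 7 and TM7SF2 in 10. The libraries whose loss ended the TM7SF2 call (R183W vehicle 2, adjusted p = 0.0547), the ABCA1 call (R183W vehicle 2 and 3, WT vehicle 2 and 3, up to 0.0774) and the TMEM97 call (R183W vehicle 1, 2 and 3, WT vehicle 2 and 3, up to 0.136) were all vehicle libraries. The 10 calls became 5 without R183W vehicle 2, 6 without R183W vehicle 3, WT vehicle 2 or WT vehicle 3, and 12 without WT WM1119 library 3. Over all genes the 1817 calls became 965 to 1144 when any 1 of these 4 libraries or R183W vehicle 1 was left out, and 3151 of 13897 (22.7%) without WT WM1119 library 3.

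**Figure D3:**
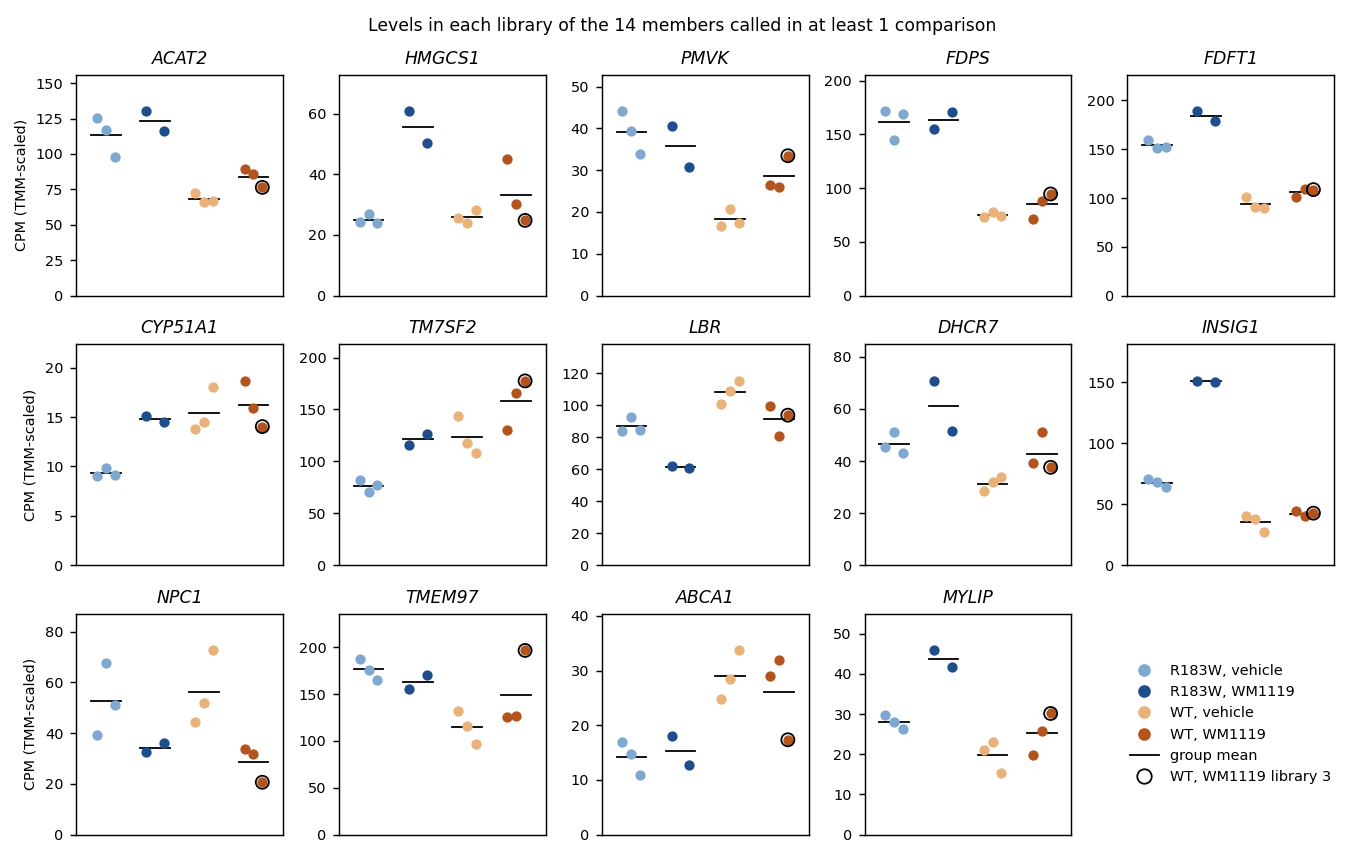
CPM in each library of the 14 sterol genes called in at least 1 comparison, with a line at each group mean and a ring around WT WM1119 library 3. FDPS, FDFT1 and ACAT2 sit higher in both R183W groups than in both WT groups, and INSIG1 has 3 levels: WT, R183W vehicle and R183W WM1119.

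Under WM1119, R183W cells had higher RNA of INSIG1, FDPS, FDFT1, ACAT2 and MYLIP and lower RNA of LBR than WT cells. That made 5 higher and 1 lower of 30, against 4.64% higher and 3.92% lower among all genes tested. The median log2 difference over the 30 genes was 0.54, with 23 above 0, against -0.02 over all genes tested.

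INSIG1 showed the largest difference of the called members. It stood at 151 and 150.1 CPM in the 2 R183W WM1119 libraries and 44.4, 39.8 and 42.5 CPM in WT WM1119. The groups were far apart, with a difference of 1.83 (SE 0.16, edgeR adjusted p = 1.25e-05). FDPS was at 155 and 171 CPM in R183W and 71.4, 88.4 and 94.5 CPM in WT, a difference of 0.95 (SE 0.15, edgeR adjusted p = 0.0014). FDFT1 read 189 and 178 CPM in R183W and 101, 109.7 and 109 CPM in WT, a difference of 0.79 (SE 0.13, edgeR adjusted p = 0.00151). Neither gene's ranges overlapped, and these 3 calls held in all 11 fits that left out 1 library.

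ACAT2 was at 130.1 and 116 CPM in R183W WM1119 and 89.6, 85.5 and 76.4 CPM in WT WM1119, without overlap, a difference of 0.55 (SE 0.15, edgeR adjusted p = 0.0338). MYLIP was at 45.8 and 41.7 CPM in R183W and 19.8, 25.7 and 30.1 CPM in WT. Both R183W libraries were above all 3 WT libraries, a difference of 0.81 (SE 0.22, edgeR adjusted p = 0.0362). LBR was lower, at 61.9 and 61.01 CPM in R183W and 99.3, 80.7 and 93.7 CPM in WT, again without overlap, a difference of -0.57 (SE 0.15, edgeR adjusted p = 0.0278). These 3 calls passed in 6, 5 and 8 of the 11 fits that left out 1 library, with adjusted p up to 0.275, 0.232 and 0.186. The ACAT2 call ended without R183W vehicle 2, WT vehicle 2, either R183W WM1119 library or WT WM1119 library 2. MYLIP lost its call without R183W vehicle 2 or 3, either R183W WM1119 library or WT WM1119 library 1 or 2, and LBR without either R183W WM1119 library or WT WM1119 library 1.

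The genes called under vehicle but not under WM1119 gave mixed values, and the change between the treatments is the interaction given further on. PMVK read 40.6 and 30.8 CPM in R183W WM1119 and 26.4, 25.9 and 33.4 CPM in WT WM1119, overlapping, a difference of 0.33 (SE 0.21, edgeR adjusted p = 0.363). DHCR7 read 70.8 and 51.6 CPM in R183W and 39.3, 51.1 and 37.6 CPM in WT, without overlap, a difference of 0.52 (SE 0.19, edgeR adjusted p = 0.118). CYP51A1 stood at 15.1 and 14.5 CPM in R183W and 18.7, 15.9 and 14.04 CPM in WT, overlapping, a difference of -0.14 (SE 0.24, edgeR adjusted p = 0.769). The interaction of CYP51A1 was 0.59 (SE 0.31, edgeR adjusted p = 0.622), so its difference between the lines was not shown to change with treatment. TM7SF2 was at 116 and 127 CPM in R183W and 129.8, 166 and 178 CPM in WT, without overlap, a difference of -0.38 (SE 0.17, edgeR adjusted p = 0.2). For TMEM97 and ABCA1, WT WM1119 library 3 stood apart from the other libraries of its group. TMEM97 read 156 and 170.3 CPM in R183W and 126, 126 and 197 CPM in WT, overlapping through that library, a difference of 0.13 (SE 0.20, edgeR adjusted p = 0.733). Without it the TMEM97 difference was 0.36 (edgeR adjusted p = 0.0921). ABCA1 read 18 and 12.7 CPM in R183W and 28.99, 31.9 and 17.3 CPM in WT, again overlapping through it, a difference of -0.77 (SE 0.29, edgeR adjusted p = 0.125). Without library 3 the ABCA1 difference was -0.99 (edgeR adjusted p = 0.0119). HMGCS1 was at 60.7 and 50.1 CPM in R183W and 45.03, 30.1 and 24.8 CPM in WT, without overlap, a difference of 0.72 (SE 0.22, edgeR adjusted p = 0.0641).

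Of the genes that edgeR called in no comparison, IDI1, SREBF2, SQLE and ABCG1 had the smallest adjusted p over the 5 comparisons, although under WM1119 HSD17B7 (1.38 (SE 0.44, edgeR adjusted p = 0.0675)) was nearer the threshold than ABCG1. IDI1, which isomerises isopentenyl diphosphate, was at 11.04 and 11.2 CPM in R183W WM1119 and 7.03, 3.34 and 3.30 CPM in WT WM1119, without overlap, and differed by 1.24 (SE 0.38, edgeR adjusted p = 0.0616). SREBF2 itself read 87.1 and 88.2 CPM in R183W and 55.4, 64.99 and 67.7 CPM in WT, also without overlap, a difference of 0.49 (SE 0.15, edgeR adjusted p = 0.0672). SQLE, the epoxidase that oxidises squalene, was at 141 and 145 CPM in R183W WM1119 and 95.5, 92.7 and 120.1 CPM in WT WM1119. Its groups were separate, with a difference of 0.48 (SE 0.14, edgeR adjusted p = 0.0571). ABCG1, which exports cholesterol to lipoprotein particles, was at 25.4 and 21.7 CPM in R183W and 16.03, 15.2 and 10.3 CPM in WT, without overlap, a difference of 0.75 (SE 0.25, edgeR adjusted p = 0.0874). Leaving out WT WM1119 library 3 raised the calls in this comparison from 6 to 14, among them SQLE at 0.59 (edgeR adjusted p = 0.00482) and SREBF2 at 0.53 (0.0234). Calls over all genes rose with it, from 1197 of 13980 to 2895 of 13897 (20.8%). Without R183W WM1119 library 1 or 2, 3 sterol genes were called in each case, beside 386 and 394 of all genes.

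In R183W cells, WM1119 was followed by higher RNA of INSIG1, HMGCS1 and TM7SF2, and no sterol gene was called lower. Among all genes tested, 1.99% were called higher and 2.65% lower. At an unadjusted p under 0.05 in edgeR, 11 of the 30 genes passed, against 2739 of the 13980 genes tested (19.6%). DESeq2 called 5 higher and 1 lower, and limma-voom 5 and 0. Of all genes tested, DESeq2 called 975 (6.97%) and limma-voom 649 (4.64%). The median log2 difference was 0.29 over the 30 genes, with 22 above 0, and 0.34 over the 20 enzymes, with 16 above 0, against -0.00 and 49.9% above 0 over all genes tested.

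INSIG1 went from 70.3, 68.1 and 64.1 CPM under vehicle to 151 and 150.1 CPM under WM1119 (means 67.5 ± 3.15, SD, n = 3, and 151 ± 0.584, SD, n = 2). The 2 inhibitor libraries lay above all vehicle libraries, a difference of 1.16 (SE 0.16, edgeR adjusted p = 0.00113) that passed in all 11 fits leaving out 1 library. HMGCS1, the synthase that supplies the mevalonate route with its HMG-CoA, rose from 24.3, 26.8 and 23.9 CPM to 60.7 and 50.1 CPM. The groups were apart by 1.15 (SE 0.22, edgeR adjusted p = 0.00969), but the call was lost without either R183W WM1119 library (adjusted p up to 0.147). TM7SF2 rose from 82, 69.98 and 77.5 CPM to 116 and 127 CPM, by 0.66 (SE 0.17, edgeR adjusted p = 0.04), also without overlap. It passed in 4 of the 11 fits leaving out 1 library, with adjusted p up to 0.292. The fits that lost it were those without any 1 of the 5 R183W libraries, without WT vehicle 2 and without WT WM1119 library 2.

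SQLE stood at 91.9, 105 and 99.97 CPM under vehicle and 141 and 145 CPM under WM1119 in R183W cells, without overlap, and differed by 0.53 (SE 0.14, edgeR adjusted p = 0.0529). ABCG1 was at 13.7, 11.1 and 13.4 CPM and 25.4 and 21.7 CPM, without overlap, a difference of 0.89 (SE 0.25, edgeR adjusted p = 0.0601). Neither was called, nor was LBR, at 83.98, 92.7 and 84.4 CPM under vehicle and 61.9 and 61.01 CPM under WM1119, a difference of -0.50 (SE 0.15, edgeR adjusted p = 0.0689) with separate groups. SREBF2 differed by 0.13 and IDI1 by 0.32 on the log2 scale, from 80.02, 74.5 and 85.6 CPM and 7.75, 9.63 and 9.33 CPM under vehicle. The genes higher between the lines under both treatments did not all differ with the inhibitor: FDPS differed by 0.01 and ACAT2 by 0.12, each with overlapping groups. Without WT WM1119 library 3 the calls rose from 3 to 7, which added SQLE (0.51, edgeR adjusted p = 0.01), ABCG1 (0.86, 0.0188), NSDHL (0.66, 0.0428) and LBR (-0.52, 0.0201). That library entered this comparison only through the filter, the scaling and the shared estimate of spread. Calls over all genes rose as well, from 649 of 13980 to 1600 of 13897 (11.5%). Without R183W WM1119 library 1 or 2, 1 sterol gene was called in each case, beside 130 and 118 of all genes.

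**Figure D4:**
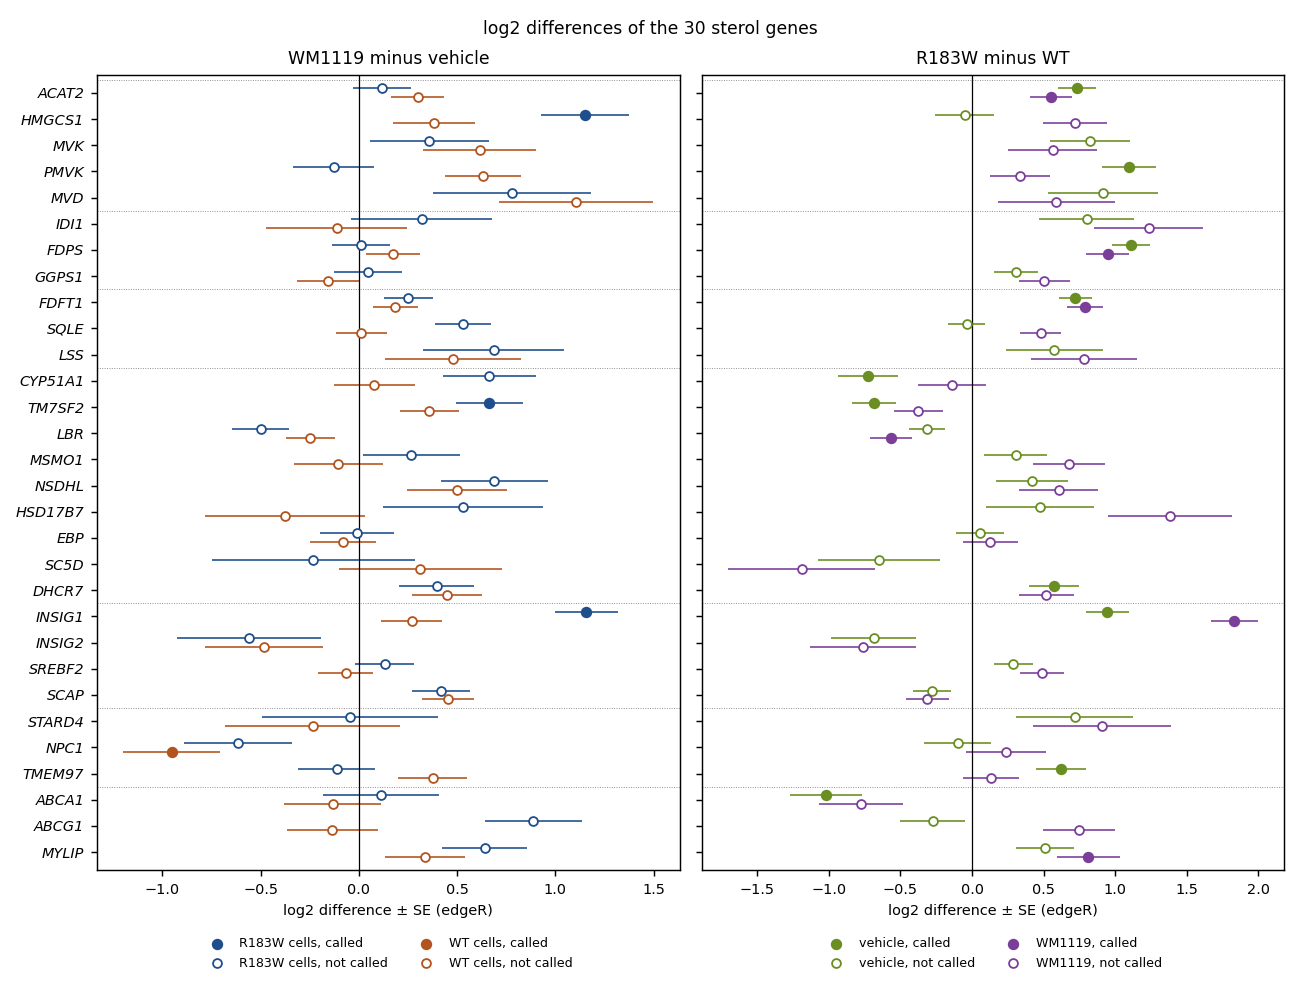
Points are log2 differences with bars of ± 1 SE for the 30 sterol genes in order of role, WM1119 minus vehicle on the left and R183W minus WT on the right; filled points were called by edgeR. On the left 3 filled R183W points lie to the right of 0 and 1 filled WT point (NPC1) to the left; on the right 12 filled points lie above 0 and 4 below.

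In WT cells, edgeR called 1 sterol gene after WM1119: NPC1, which was lower. NPC1 moves cholesterol out of late endosomes and lysosomes. Among all genes tested, 2.33% were called higher and 2.53% lower, so 1 call in 30 is near that background. NPC1 was at 44.4, 51.8 and 72.6 CPM under vehicle and 33.6, 31.9 and 20.6 CPM under WM1119. All WM1119 libraries were below all vehicle libraries, a difference of -0.95 (SE 0.25, edgeR adjusted p = 0.0407). The lowest value came from WT WM1119 library 3, and without that library the difference was -0.78 (edgeR adjusted p = 0.0572). The call passed in 4 of the 11 fits leaving out 1 library, with adjusted p up to 0.179. It was lost without R183W vehicle 3, WT vehicle 2 or 3, either R183W WM1119 library, or WT WM1119 library 2 or 3. In R183W cells NPC1 was at 39.3, 67.8 and 51.1 CPM under vehicle and 32.4 and 36.2 CPM under WM1119, without overlap, and differed by -0.62 (SE 0.27, edgeR adjusted p = 0.232).

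None of the sterol genes was called higher in WT cells by edgeR, while 7 of 30 passed an unadjusted p under 0.05 in either direction, a share near that of all genes tested (2980 of 13980, 21.3%). DESeq2 called 2 higher and 1 lower, and limma-voom none. Over all 13980 genes tested these tools called 1115 (7.98%) and 627 (4.48%). The genes called in R183W cells after WM1119 had smaller log2 differences in WT cells. They were chosen by that call, so this comparison of the lines is not an even one. INSIG1 was at 40.2, 37.7 and 27.5 CPM under vehicle and 44.4, 39.8 and 42.5 CPM under WM1119, overlapping, with a difference of 0.27 (SE 0.16, edgeR adjusted p = 0.345). HMGCS1 read 25.7, 23.8 and 28.04 CPM and 45.03, 30.1 and 24.8 CPM, with overlap and a difference of 0.38 (SE 0.21, edgeR adjusted p = 0.311). TM7SF2 read 144, 117 and 108 CPM and 129.8, 166 and 178 CPM, again overlapping, with a difference of 0.36 (SE 0.15, edgeR adjusted p = 0.192). Without WT WM1119 library 3 the HMGCS1 difference rose to 0.55 (edgeR adjusted p = 0.105). In that fit INSIG1 differed by 0.27 (0.387) and TM7SF2 by 0.27 (0.32). PMVK was higher in each WT WM1119 library than in each vehicle library, at 26.4, 25.9 and 33.4 CPM against 16.7, 20.8 and 17.3 CPM, but its difference of 0.63 (SE 0.19, edgeR adjusted p = 0.0756) was not called. MVD differed by 1.10 (SE 0.39, edgeR adjusted p = 0.124) and MVK by 0.61 (SE 0.29, edgeR adjusted p = 0.237), against 0.78 and 0.36 in R183W cells. Their WT groups overlapped, and without WT WM1119 library 3 the differences were 0.76 and 0.16. All 5 mevalonate enzymes were above 0 in WT cells, with a median of 0.61, against 4 and 0.36 in R183W cells. In edgeR 3 of the 5 passed an unadjusted p under 0.05 in WT cells and 1 in R183W cells. SQLE, ABCG1, SREBF2 and IDI1 lay close to 0 here. SQLE was at 102, 105 and 97.5 CPM under vehicle and differed by 0.01, ABCG1 by -0.14. SREBF2 was at 72.3, 66.5 and 57.8 CPM and differed by -0.07, and IDI1 was at 4.24, 4.19 and 6.77 CPM and differed by -0.11, with overlapping groups for all 4. The median log2 difference was 0.18 over the 30 genes, with 18 above 0. Over the 20 enzymes it was 0.24, with 14 above 0. Over all genes tested it was -0.00, with 49.6% above 0. Without WT WM1119 library 1 there were 4 calls, with 1392 called over all genes against 680 in the full fit, and none without R183W vehicle 3, WT vehicle 2 or 3, either R183W WM1119 library or WT WM1119 library 2, where 247 to 478 of all genes were called.

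Whether the WM1119 difference itself differed between the lines was tested by the interaction, and edgeR called none of the 30 genes. Among all genes tested 0.093% were called higher and 0.193% lower. At an unadjusted p under 0.05, 5 of the 30 passed, namely INSIG1, ABCG1, PMVK, SQLE and HMGCS1, against 1300 of the 13980 genes tested (9.30%). DESeq2 called 1, INSIG1, with an adjusted p of 0.0317, and limma-voom called none. Of all genes tested, they called 169 (1.21%) and 37 (0.265%). For INSIG1 the interaction was 0.89 (SE 0.22, edgeR adjusted p = 0.152), and leaving out 1 library gave adjusted p from 0.0619 to 0.53. For ABCG1 it was 1.02 (SE 0.34, edgeR adjusted p = 0.309), for SQLE 0.52 (SE 0.19, edgeR adjusted p = 0.404) and for HMGCS1 0.77 (SE 0.30, edgeR adjusted p = 0.434). PMVK had the opposite sign, at -0.76 (SE 0.28, edgeR adjusted p = 0.395). The larger WM1119 response of INSIG1 in R183W cells was therefore not shown by edgeR to differ from that in WT cells.

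The 12 remaining genes were called in no comparison by edgeR with all 11 libraries. The other tools called 3 of them: MVK under vehicle by DESeq2 (adjusted p = 0.0427) and limma-voom (0.0398), HSD17B7 under WM1119 by the same tools (0.0329 and 0.0441), and SCAP in WT cells by DESeq2 (0.0249). Without WT WM1119 library 3, edgeR called these 3 and also NSDHL and SC5D in at least 1 comparison. Without WT WM1119 library 1, edgeR called MVD (adjusted p = 0.0346), MVK (0.0458) and NSDHL (0.0455) in WT cells. With no filter on low counts it called MVD in WT cells (0.00858) and under vehicle (0.0226). That fit also called MVK under vehicle (0.00645), HSD17B7 under WM1119 (0.00449) and NSDHL in R183W cells (0.0444). When only the 2 groups compared were fitted by edgeR, LSS (adjusted p = 0.0442), MVD (0.0414), SCAP (0.0286) and NSDHL (0.00864) were called in R183W cells. MVK was called under vehicle (0.00656) in such a fit. Among early enzymes, MVK, the first kinase of the mevalonate branch, differed by 0.82 (SE 0.28, edgeR adjusted p = 0.0703) between the lines under vehicle, without overlap. MVD, the mevalonate diphosphate decarboxylase, and LSS, the cyclase that forms lanosterol, differed by 0.91 and 0.58 between the lines under vehicle. GGPS1, which makes the geranylgeranyl diphosphate used to anchor proteins, differed by 0.31 under vehicle and 0.51 under WM1119. The demethylation enzymes MSMO1, NSDHL and HSD17B7 were above 0 in both genotype comparisons, at 0.30, 0.42 and 0.48 under vehicle and 0.68, 0.60 and 1.38 under WM1119. EBP, the sterol isomerase, stayed near 0, with differences from -0.08 to 0.13 over the 4 comparisons. SC5D, the sterol desaturase, differed by -0.65 under vehicle and -1.19 under WM1119, but its WT WM1119 libraries spread from 2.89 to 12.6 CPM, the lowest being library 3. Without that library the WM1119 difference was -1.58 (edgeR adjusted p = 0.00855). INSIG2 was below 0 in all 4 comparisons, from -0.76 to -0.48, while SCAP was above 0 with the inhibitor in both lines (0.42 in R183W, 0.45 in WT) and below 0 between the lines. STARD4, a cytosolic sterol carrier, was low, at 1.78 to 7.20 CPM. Between the lines it differed by 0.72 (SE 0.41, edgeR adjusted p = 0.274) under vehicle and 0.91 (SE 0.48, edgeR adjusted p = 0.278) under WM1119. Neither was called at this depth, though the groups did not overlap. With the inhibitor STARD4 differed by -0.05 in R183W and -0.24 in WT cells, with overlap.

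Related genes outside the 30 were read from 4 further lists. Of 20 other genes of sterol handling and regulation, edgeR, DESeq2 and limma-voom called none after WM1119 in either line, with 2 in each line at an unadjusted p under 0.05 in edgeR, below the share of all genes tested (19.6% in R183W and 21.3% in WT cells). Between the lines, LRP8, a lipoprotein receptor, was higher in R183W by 0.58 (SE 0.14, edgeR adjusted p = 0.016) under vehicle and 1.02 (SE 0.16, edgeR adjusted p = 0.00134) under WM1119. RNF139, a sterol-responsive E3 ligase, was lower under vehicle, at -0.87 (SE 0.22, edgeR adjusted p = 0.02), and RNF145 under WM1119, at -0.63 (SE 0.15, edgeR adjusted p = 0.0183). Of 10 genes of the isoprenoid branches, PGGT1B, a subunit of a protein geranylgeranyl transferase, was lower under vehicle, at -0.97 (SE 0.30, edgeR adjusted p = 0.0484), and edgeR, DESeq2 and limma-voom called no other.

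Of 11 tested genes of the fatty acid arm of the same transcription factor family, ACSS2 was called after WM1119 in R183W cells. ACSS2 makes acetyl-CoA from acetate, and it rose from 20.3, 18.2 and 17.4 CPM to 41.3 and 45.9 CPM, without overlap, by 1.22 (SE 0.21, edgeR adjusted p = 0.00547). WT cells gave 11.6, 13.7 and 10.9 CPM under vehicle and 15.6, 14.9 and 22.7 CPM under WM1119, a difference of 0.53 (SE 0.21, edgeR adjusted p = 0.165), and the interaction was 0.69 (SE 0.30, edgeR adjusted p = 0.5). FASN, the fatty acid synthase, was higher in R183W by 0.71 (SE 0.12, edgeR adjusted p = 0.00155) under vehicle and 0.77 (SE 0.13, edgeR adjusted p = 0.00239) under WM1119. PNPLA3, a lipid droplet acyl hydrolase, was higher in both as well (0.77 and 0.98), as was ACSS2 under WM1119 (1.32). FADS2, a fatty acid desaturase, was called under vehicle (0.69) and missed the threshold under WM1119 (0.75). The median of this list was 0.37 under vehicle and 0.37 under WM1119, against -0.01 and -0.02 for all genes tested. Of 7 tested LXR receptors and further LXR targets, NR1H3, which encodes LXR alpha, was higher in R183W under vehicle by 0.92 (SE 0.28, edgeR adjusted p = 0.0421). After WM1119, edgeR, DESeq2 and limma-voom called no gene of this list, with 2 of the 7 in each line at an unadjusted p under 0.05 in edgeR, against 19.6% and 21.3% of all genes tested.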

How the data were processed

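RNA sequencing covered 11 libraries of 4 groups. Per the labels' protocols, RNA was purified with an RNeasy kit, digested with DNase I and prepared with a ScriptSeq Complete Gold kit, whereas the molecule field reads polyA RNA. Expected counts, the estimated number of reads per gene, were deposited by the authors as whole numbers. STAR, RSEM and hg19 appear in the submitters' processing notes, with no versions or roles. Of 57736 rows, 51959 had a symbol, and rows without one held 1.01% of the counts. Genes were kept by filterByExpr (13980), scaled by TMM and tested in 1 fit of 4 group means with edgeR 4.0.16 (two-sided quasi-likelihood F test, Benjamini-Hochberg over all genes, threshold 0.05) in R 4.3.3. The biological coefficient of variation was 19.6%, and the kept genes held at least 99.7% of each library. DESeq2 1.42.0, limma-voom (limma 3.58.1), other scalings, no filter, a replicate block, fits of 2 groups and omission of each library were alternatives. The script was tested on simulated data.

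Whether the numbered replicates were separate cultures is not stated in the labels, so p-values reflect only the spread among these libraries, possibly a technical one. No replicate pair agreed within sampling noise. Members and lists were chosen with earlier results of these data known. By rule, each sample's values are printed for the 14 called genes and the 4 uncalled genes with the smallest adjusted p, and called genes are named from other lists, up to 4 per comparison; further values, such as the log2 differences of other members and the libraries of ACSS2, were added after they were seen. PECAM1, ACACA, and promoters of SQLE, ABCG1, FDFT1 and ACAT2 were not analysed here; promoter windows came from RefSeq on GRCh38.p14, another build than that of the counts. The result of 1 gene of the LXR list is not reported here.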

Additional observations from a re-analysis of the deposited data

How the results depend on the processing

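The number of sterol genes called, higher and lower together, moved by over 1.5 times as follows. In R183W cells after WM1119 the main count of 3 became 6 with DESeq2, 5 with limma-voom and 12 with only the 2 groups compared. It ran from 1 to 7 when 1 library was left out. Of all genes, 4.64% were called in the main fit and with limma-voom, 6.97% with DESeq2 and 18.2% with only the 2 groups. That share ran from 0.803% to 11.5% over the libraries left out. In WT cells after WM1119 the count of 1 became 2 with no filter on low counts, 3 with DESeq2, and 0 with limma-voom, with the replicate block and with only the 2 groups compared, and it ran from 0 to 4 over the libraries left out. Between the lines, the count of 10 under vehicle ran from 5 to 12 over the libraries left out. Under WM1119 the count of 6 became 11 with DESeq2, and 3 both with the replicate block and with only the 2 groups compared. It ran from 3 to 14 over the libraries left out. The interaction count of 0 became 1 with DESeq2 and stayed 0 in edgeR under all libraries left out. The cause of these changes was not tested.

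Among all genes tested, calls after WM1119 in R183W cells numbered 649, against 1110 with no filter, 975 with DESeq2 and 2406 with only the 2 groups; in WT cells 680, against 1287, 1115 and 139. Between the lines they numbered 1817 under vehicle, against 2929 with only the 2 groups, and 1197 under WM1119, against 319. In these 2 comparisons DESeq2 called 2174 and 1510, and limma-voom 2149 and 1088. The interaction called 40, against 191 with no filter and 169 with DESeq2.

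Deviations from the group means correlated at -0.39 to 0.14 between libraries of the same number, so the numbers were not taken to pair the samples. With the replicate block, sterol gene calls numbered 2 and 0 after WM1119 in R183W and WT cells, 7 and 3 between the lines under vehicle and WM1119, and 0 in the interaction. All genes called then numbered 261, 287, 1189, 678 and 0.

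For the 20 calls of single genes, 125 of the values from other settings stayed past the threshold and 15 did not; with 1 library left out, 165 stayed and 55 did not. No called value changed sign. The third WT WM1119 library, at 2609922 counts, had the least depth, and its 3-count floor of 1.24 CPM limits genes such as STARD4.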
